A study of Mus musculus with 8 samples.

Results

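The comparison described here sets innate lymphoid cell progenitors (ILCP) against common lymphoid progenitors (CLP), both sorted from mouse fetal liver, across every gene with enough counts. Its members are the 3 ILCP and the 3 CLP libraries, 6 of the 8 libraries of the series, and 12010 of the 34745 genes in the table passed the filter on low counts. Bulk RNA-seq was made from B6 wild-type mice that, per the labels, had received no treatment. CLP were live cells that lacked lineage markers and CD25 and carried CD45, CD127 and Flt3. ILCP shared the lineage, CD25, CD45 and CD127 settings but lacked Flt3 and CD94 and carried α4β7 and PD-1. An entry of 6 to 8 weeks of age stands in the labels, unexplained for fetal tissue, beside a single batch date, which leaves no batches to compare. Whether the 3 libraries of a group came from separate animals is not labelled. The p-values therefore reflect the spread among these libraries alone, and that spread may be technical.

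CLP are progenitors that can still give rise to B cells, T cells and innate lymphocytes. ILCP lie further along, and in them the B-cell and T-cell fates are thought to be largely closed while the helper innate lymphoid fates remain. Fetal liver is the main blood-forming organ before birth, and both progenitor types leave it to seed other tissues. Adhesion molecules, receptors that sense nucleotides and lipids, and transporters that feed growing cells are therefore of interest beside the lineage factors by which such cells are usually described.

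Levels are given in CPM, the counts of a gene scaled to a common library size after TMM adjustment. Unless said otherwise, 3 values "against" 3 values are CPM in CLP 1, 2 and 3 against ILCP 1, 2 and 3, and a single value "against" another is the CLP mean against the ILCP mean. Log2 fold changes are ILCP minus CLP, given ± standard error, with Benjamini-Hochberg adjusted p-values over all genes tested from edgeR's quasi-likelihood test (n = 3 and 3). A gene was called higher or lower at an adjusted p under 0.05. For a gene without counts in 1 group, the fold is a lower bound, taken against 3 counts pooled over that group's libraries. In bulk RNA, fewer cells of a type and less RNA per cell cannot be told apart.

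The markers by which the cells had been sorted were read first. Flt3, the receptor of the Flt3 ligand, had 647, 450.4 and 454 against 1.46, 0 and 0 CPM. All CLP libraries were high and all ILCP libraries at or near 0 (log2 fold change -10.03 ± 0.75, adjusted p = 5.7e-05). Pdcd1, which encodes PD-1, had 0, 0 and 0 against 122, 49.7 and 90.4 CPM, so that only ILCP libraries held counts of it (at least 539.8-fold higher, adjusted p = 1.9e-04). Itgb7, the β7 chain of the α4β7 integrin, had 9.39, 0.827 and 3.14 against 128, 31.5 and 86.4 CPM (log2 fold change 4.16 ± 0.81, adjusted p = 0.011), with no overlap, but this call was lost without CLP 3 (adjusted p = 0.065). Il2ra, which encodes the CD25 that both gates exclude, had 0, 0 and 0 against 7.13, 10.3 and 7.99 CPM (at least 52.9-fold higher, adjusted p = 0.013), a call that was lost with the replicate number as a block (adjusted p = 0.07). Il7r, which encodes CD127, was at 488 against 543 CPM (95% interval of the log2 fold change -0.30 to 0.60), and Ptprc, which encodes CD45, at 276 against 256 CPM (interval -0.62 to 0.41). Itga4, the α4 chain, was at 417 against 495 CPM (interval -0.20 to 0.70), and Klrd1, which encodes CD94, at 58.7 against 50.1 CPM (interval -1.25 to 0.79).

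Total counts ran from 4991939 to 7167619 per library, with 13019 to 14171 genes detected, and log-CPM values correlated at 0.882 to 0.889 within CLP, 0.852 to 0.876 within ILCP and 0.684 to 0.718 between groups. Genes on lists of markers of other cell types differed between the groups too. All 11 tested genes of a B-lineage list were lower in ILCP, and their summed level was 3766 to 4865 CPM in CLP and 187 to 231 CPM in ILCP. Of 14 tested T-cell genes 11 were higher and 1 lower (Cd4), with sums of 519 to 806 CPM in CLP and 9998 to 15320 CPM in ILCP. Much of the ILCP sum came from T-cell receptor γ and β constant genes. Tcrg-C1 was at 42.0 against 4142 CPM, Tcrg-C4 at 0 against 1862 CPM, Trbc1 at 22.7 against 2119 CPM and Trbc2 at 611 against 2174 CPM. Without Tcrg-C1 the list summed to 408 to 803 CPM in CLP and 7104 to 9700 CPM in ILCP. Cd3g, a chain of the CD3 complex, was at 10.8 against 1815 CPM, Cd3e at 0 against 7.61 CPM and Trac, the T-cell receptor α constant gene, at 2.29 against 11.8 CPM. In the list of NK cell and ILC1 genes 6 of 10 were higher (Nkg7, Ccl5, Ifng, Klrc1, Gzma and Gzmb) and 2 lower (Ccl3 and Ccl4). The sums were 1452 to 2985 CPM in CLP and 2710 to 2976 CPM in ILCP (without Nkg7, 1365 to 2840 and 1010 to 1235 CPM). Ccl3 was at 1161 against 15.3 CPM, Ccl4 at 935 against 8.08 CPM and Ccl5 at 3.49 against 997 CPM. Eomes and Ncr1 averaged 0 against 3.07 CPM and 0 against 1.34 CPM, both below the filter on low counts. Of 8 neutrophil and monocyte genes 4 were lower (811 to 1059 against 36.4 to 46.2 CPM), and only 2 without CLP 2 or without CLP 3. Of 10 dendritic cell genes 6 were lower (1221 to 1594 against 242 to 722 CPM), and only 2 without CLP 1. Most of that sum in CLP came from Ly6d (958 against 11.1 CPM), and without it the list summed to 434 to 499 CPM in CLP and to 239, 242 and 699.8 CPM in ILCP 1, 2 and 3. Xcr1 was at 0, 3.31 and 1.16 against 13.9, 15.4 and 15.8 CPM, H2-Aa at 1.16, 3.10 and 10.4 against 28.7, 4.31 and 162 CPM and Cd74 at 26.5, 40.5 and 72.1 against 52.8, 42.9 and 289.7 CPM, none of them called, so that ILCP 3 stood apart in H2-Aa and Cd74. In the mast cell list Cpa3 was higher, while Mcpt4, Tpsb2, Fcer1a and Ms4a2 were among the 7 of 11 genes at 0 in all 6 libraries. Cma1, the mast cell chymase, had 0, 0 and 0 against 0, 5.84 and 2.19 CPM and Gata2 0, 0 and 0.165 against 0, 0 and 2.35 CPM, both below the filter on low counts. Gp1bb and Itgb3 were higher in the megakaryocyte list, in which Ppbp, Vwf, Gp6 and Treml1 were at 0. Ahsg in the hepatocyte list was called, though not without CLP 1, CLP 3 or ILCP 1. Stab2 was called in the endothelial and stromal list, in which Cdh5, Lyve1, Dcn and Col3a1 were at 0. Of 15 erythroid genes listed only 2 were tested, of which 0 were called by edgeR, 0 by DESeq2 and 0 at an unadjusted p under 0.05. Both intervals were wide (Hba-a1 -4.38 to 1.91 and Hba-a2 -2.84 to 2.44), so sizeable differences could have gone uncalled.

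Across the 12010 genes 1134 were called, or 9.44%, of which 595 (4.95%) were higher in ILCP and 539 (4.49%) lower. The median called gene changed by 3.64 on the log2 scale and the smallest by 0.68. Libraries of the groups did not overlap in 3559 genes (29.6%), 1777 of them higher (14.8%) and 1782 lower (14.8%). Of the called genes, 160 had no counts in CLP and 135 none in ILCP. Leaving out ILCP 3 left 391 higher, and leaving out CLP 2 or CLP 3 left 286 or 303 lower.

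Outside the lineage lists, the 12 genes with the highest mean CPM in each direction were taken among called genes with an absolute log2 fold change of at least 2 and no overlap between the groups. No overlap was also required of the called list genes named further on, so it is no result for them. Those higher in ILCP included transcriptional partners and signalling adaptors. Prr13, a gene for a proline-rich protein (ENSMUSG00000023048, chr15:102459028-102462806, build mm10), had 412, 595 and 693 against 3457, 5286 and 2947 CPM (log2 fold change 2.78 ± 0.29, adjusted p = 3.8e-04). Every ILCP library lay several-fold above every CLP library. Lmo4, a LIM-only protein that bridges transcription factors (ENSMUSG00000028266, chr3:144188530-144205220), had 35.9, 19.4 and 21.95 against 848, 726 and 891 CPM (log2 fold change 4.99 ± 0.30, adjusted p = 1.8e-05). Rxrg, a retinoid X receptor (ENSMUSG00000015843, chr1:167598384-167639623), had 0, 3.31 and 0 against 787, 526 and 569 CPM, so that 2 CLP libraries held none of it and every ILCP library far more than the third (log2 fold change 9.39 ± 0.94, adjusted p = 2.7e-04). Fcer1g, the signalling chain shared by several Fc and activating receptors, was at 171 ± 72.9 CPM in CLP and 785 ± 215 CPM in ILCP (SD, n = 3 each, log2 fold change 2.20 ± 0.34, adjusted p = 0.0035). Tmem154, a membrane protein, averaged 106 against 721 CPM (log2 fold change 2.76 ± 0.25, adjusted p = 1.4e-04), and Ap3s1, a subunit of the AP-3 vesicle adaptor, 77.7 against 497 CPM (log2 fold change 2.68 ± 0.22, adjusted p = 7.7e-05). Xlr4a, of an X-linked gene family whose near-identical copies make its count uncertain, averaged 41.3 against 446 CPM.

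Among the 12 that were lower in ILCP, Tsc22d1, a leucine zipper protein (ENSMUSG00000022010, chr14:76414961-76507765), had 2529.7, 2159 and 2415 against 71.4, 53.98 and 90.4 CPM (log2 fold change -5.04 ± 0.26, adjusted p = 1.1e-05). Il12a, a cytokine subunit gene, had 686, 976 and 993 against 1.46, 3.69 and 2.04 CPM (log2 fold change -8.51 ± 0.40, adjusted p = 6.8e-06). Il12a was thus abundant in every CLP library and close to 0 in every ILCP library. Mzb1, an endoplasmic reticulum protein that helps antibody chains fold, was at 1582 ± 271 CPM in CLP and 10.1 ± 4.20 CPM in ILCP (log2 fold change -7.28 ± 0.37, adjusted p = 9.0e-06). Ramp1, which pairs with the calcitonin receptor-like receptor, had 1156, 1541 and 1551 against 199, 229 and 222 CPM (log2 fold change -2.71 ± 0.21, adjusted p = 5.9e-05). Plac8 averaged 2044 against 287 CPM, Tifa, an adaptor of innate immune signalling, 988 against 49.1 CPM and Plk2, a polo-like kinase, 714 against 47.5 CPM. All 3 were called, with adjusted p of 1.0e-03, 1.7e-05 and 8.3e-05.

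**Figure D1:**
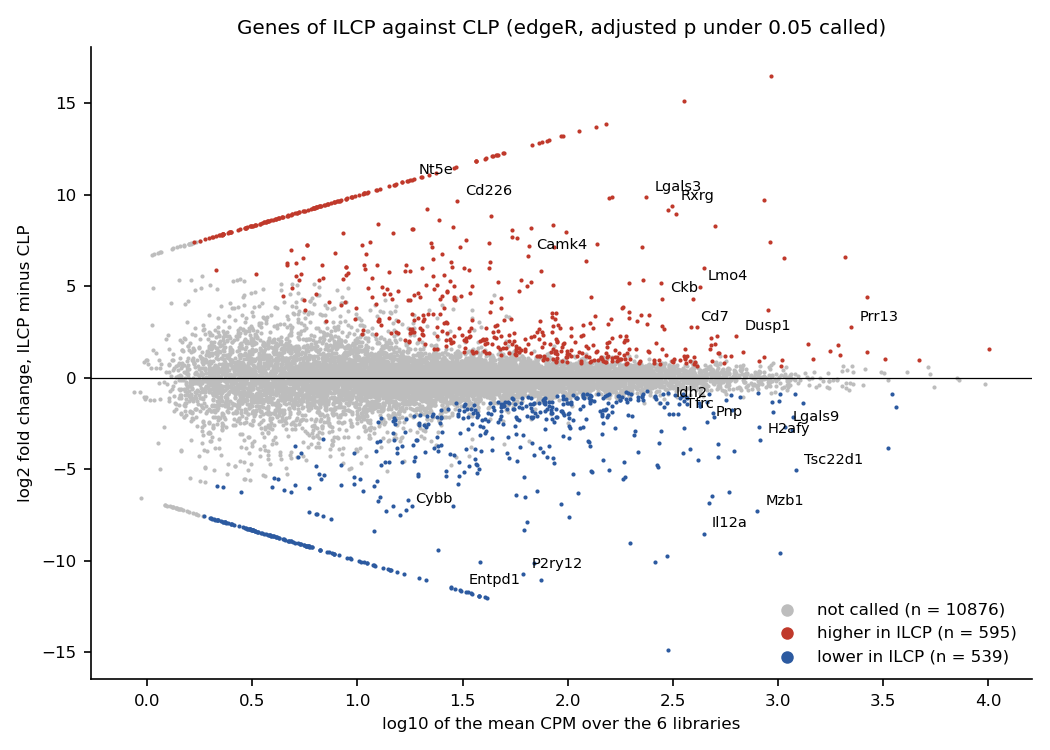
Log2 fold change (ILCP minus CLP) of the 12010 tested genes against the log10 of their mean CPM over the 6 libraries, with called genes coloured by direction and 21 genes named. The 595 higher and 539 lower genes spread over most of the range of levels, and the outer straight edges are genes with no counts in 1 group, whose plotted fold depends on the prior count.

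Functional lists were then read one by one. In all 32 lists together 120 of 1489 tested genes were higher and 137 lower (17.3%, beside 9.44% of all genes), and the list genes had been chosen with earlier results of these data known. By theme the called share was 30.5% of 200 adhesion and cell surface genes, 20.5% of 317 receptor and signalling genes, 17.4% of 362 metabolic genes, 14.4% of 125 cytoskeletal and vesicle genes and 10.5% of 486 RNA, chromatin and transcription genes. Median log2 fold changes of these themes lay between -0.21 and 0.08, beside -0.01 for all genes.

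**Figure D2:**
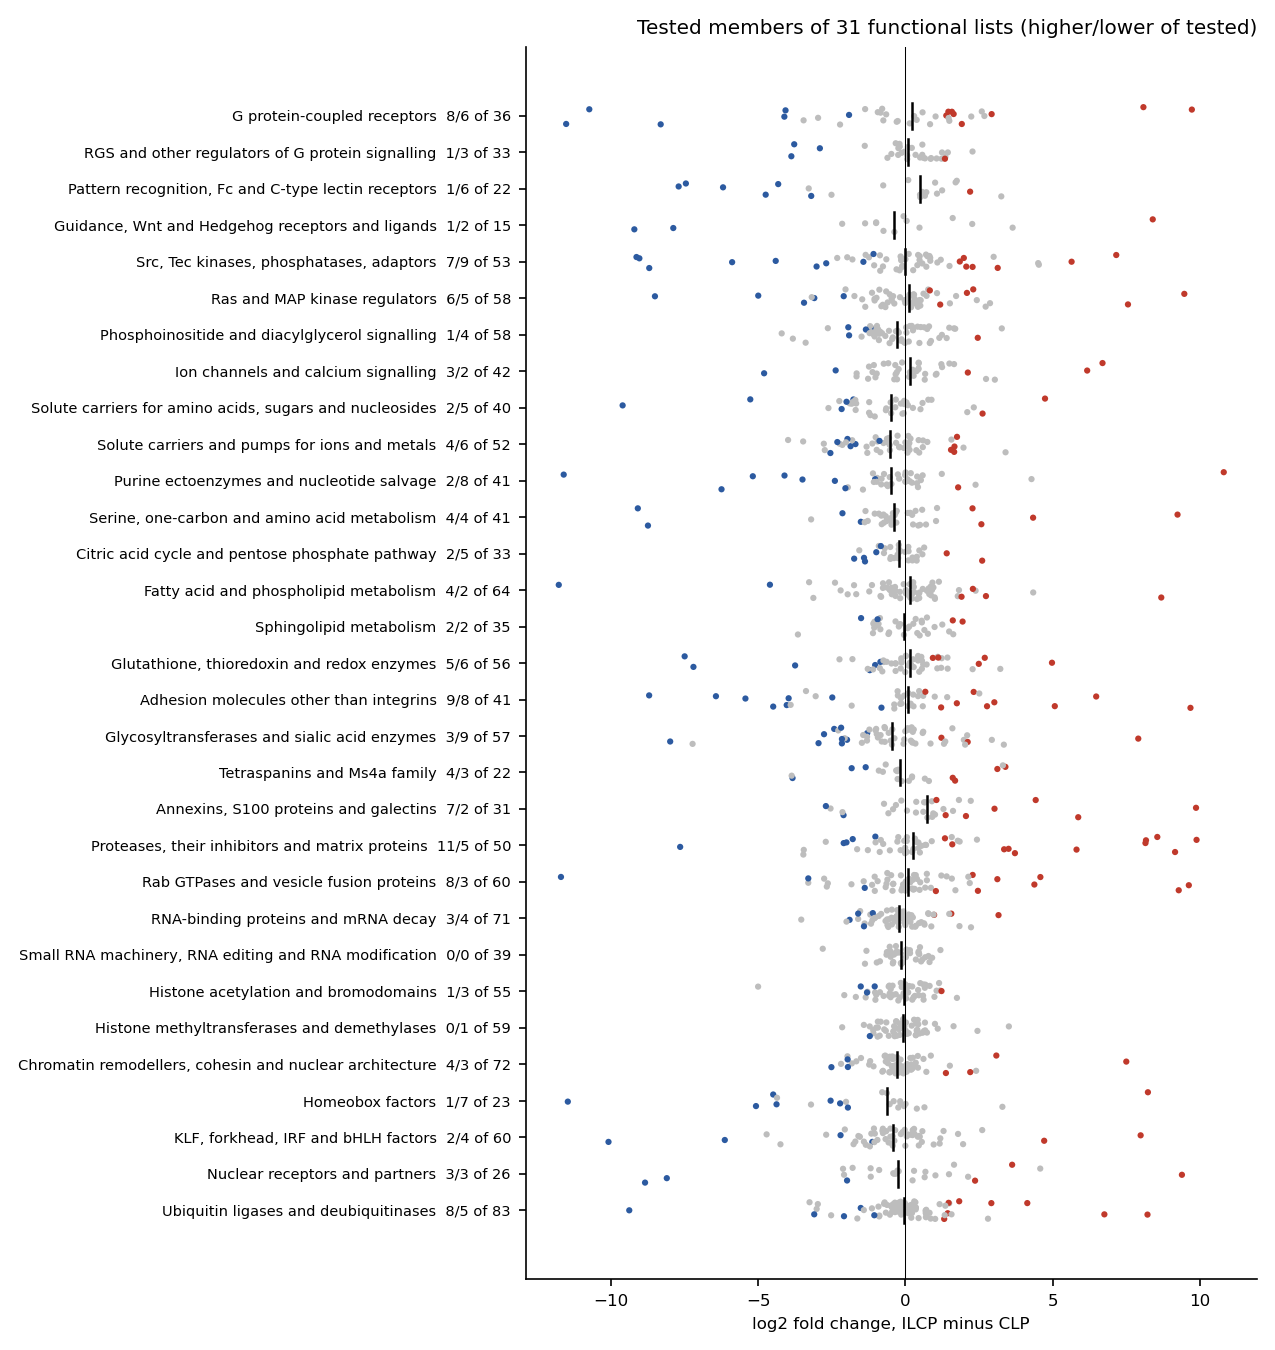
Log2 fold change (ILCP minus CLP) of each tested member of 31 of the 32 functional lists, 1 dot per gene, red where called higher, blue where called lower and grey where not called, with a black bar at the list's median. Labels give the called genes in each direction and the genes tested. Called genes lie on both sides in most lists, while 0 of 39 genes of the small RNA, editing and modification list are coloured.

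Among G protein-coupled receptors other than chemokine receptors, 8 of 36 tested genes were higher and 6 lower (median log2 fold change 0.22). The counts were 4 higher and 5 lower without CLP 1, without CLP 3 or without ILCP 3. Of these, 2 receptors for ADP were lower in ILCP. P2ry12, the ADP receptor best known from platelets and microglia (ENSMUSG00000036353, chr3:59216272-59262871), had 136, 116 and 117 against 0, 0.154 and 0 CPM (pooled counts 2375 times as high in CLP, 95% interval 426 to 93867, adjusted p = 1.3e-05). P2ry13, a second ADP receptor, had 24.8, 78.2 and 71.96 against 0, 0 and 0 CPM, with no count in any ILCP library (at least 343-fold lower, adjusted p = 6.2e-04). P2ry10, a receptor for lysophospholipids that sits in the same family by sequence, went the other way with 16.6, 15.3 and 20.3 against 68.2, 72.6 and 56.2 CPM (log2 fold change 1.91 ± 0.32, adjusted p = 0.0054).

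Of the adhesion-class receptors in the list, Adgrg5 and Adgre5 were called higher and Adgrg3 and Adgrg1 lower. Adgrg5 had 0, 0 and 1.16 against 133, 81.04 and 110.4 CPM (log2 fold change 8.08 ± 0.87, adjusted p = 4.1e-04). Adgrg3 had 654, 666 and 689 against 36.9, 9.23 and 70.2 CPM (log2 fold change -4.11 ± 0.60, adjusted p = 0.0025) and Adgrg1 185, 125 and 124 against 4.37, 2.61 and 18.8 CPM (log2 fold change -4.07 ± 0.67, adjusted p = 0.0048). Thus Adgrg5 was near 0 in CLP, and its relatives Adgrg1 and Adgrg3 were the ones with high levels there. Gpr65, a receptor that senses extracellular acid, had 28.6, 52.3 and 27.6 against 238, 297 and 287 CPM (log2 fold change 2.93 ± 0.30, adjusted p = 3.4e-04). Downstream of such receptors, Rgs10, which shortens G protein signals, averaged 111 against 8.06 CPM (log2 fold change -3.78 ± 0.35, adjusted p = 1.8e-04). Pde4b and Pde2a, which break down cyclic nucleotides, averaged 489.8 against 65.4 CPM (log2 fold change -2.90 ± 0.37, adjusted p = 0.0012) and 61.7 against 4.20 CPM (log2 fold change -3.87 ± 0.76, adjusted p = 0.012). Gnb1, a G protein β subunit, averaged 109 against 275 CPM (log2 fold change 1.34 ± 0.24, adjusted p = 0.0069). In the list of such regulators 1 of 33 was higher and 3 lower (12.1% called, beside 9.44% of all genes). Rgs1 and Rgs2 were at 263 against 229 CPM (interval -0.89 to 0.48) and 587 against 537 CPM (interval -0.81 to 0.55).

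Of the pattern recognition, Fc and C-type lectin receptors, 1 of 22 was higher and 6 lower (3 higher and 8 lower with DESeq2). Clec12a, an inhibitory lectin of myeloid cells, had 389, 629 and 516 against 23.97, 7.69 and 25.5 CPM (log2 fold change -4.74 ± 0.46, adjusted p = 2.2e-04). The single gene called higher was Fcer1g. The list's median log2 fold change was 0.50, on the higher side, and its summed level was 1241 to 1770 CPM in CLP and 1477 to 1998 CPM in ILCP. The neutrophil and monocyte sums were lower in the ILCP libraries, and the dendritic sums were so in all 3 only with Ly6d included. The part of either in this result was not tested. Sema4a, a semaphorin, was the single guidance gene called higher, with 0, 0 and 0.165 against 23.3, 34.4 and 16.9 CPM (pooled counts 466 times as high in ILCP, 95% interval 83.3 to 18448, adjusted p = 9.1e-04). In the guidance, Wnt and Hedgehog list 1 of 15 was higher and 2 lower (2 higher and 3 lower with DESeq2 and 1 higher and 0 lower over genes with a mean of at least 50 counts or without CLP 2).

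In the list of Src and Tec family kinases, receptor phosphatases and their adaptors, 7 of 53 were higher and 9 lower. The genes that were lower included Blk, Syk and Btk, kinases known from B-cell receptor signalling. Blk, a Src family kinase, had 53.3, 57.3 and 54.3 against 6.80, 5.54 and 7.99 CPM (log2 fold change -3.02 ± 0.38, adjusted p = 0.001). Syk, the kinase that binds phosphorylated receptor tails, had 82.2, 78.4 and 45.2 against 13.8, 11.5 and 6.58 CPM (log2 fold change -2.69 ± 0.43, adjusted p = 0.004). Btk averaged 69.1 against 3.26 CPM (log2 fold change -4.40 ± 1.00, adjusted p = 0.024), but its call was lost with no filter on low counts, in the fit to all 8 libraries, without CLP 1, without CLP 2, without CLP 3 or without ILCP 2 (adjusted p from 0.051 to 0.085). Plcg2, the phospholipase downstream of Btk, had 184, 122 and 146 against 26.9, 42.9 and 47.9 CPM (log2 fold change -1.94 ± 0.30, adjusted p = 0.0036).

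The 7 genes of that list that were higher were Skap1, Sla, Sh2d2a, Ptpn22, Ptpn14, Sla2 and Zap70. Sla, which promotes turnover of receptor complexes, had 92.5, 35.6 and 52.98 against 208, 296 and 378 CPM (log2 fold change 2.28 ± 0.38, adjusted p = 0.0049). Sh2d2a, a T-cell adaptor, averaged 15.01 against 62.8 CPM (log2 fold change 2.07 ± 0.35, adjusted p = 0.0052) and the phosphatase Ptpn22 35.9 against 129.5 CPM (log2 fold change 1.85 ± 0.33, adjusted p = 0.0074). Skap1 and Skap2, paralogous adaptors that link receptors to integrins, differed in opposite directions. Skap1 had 0, 0 and 9.41 against 483, 425 and 439.5 CPM (log2 fold change 7.16 ± 1.13, adjusted p = 0.004), a call lost with no filter on low counts (adjusted p = 0.098), and Skap2 had 148, 102 and 91.4 against 42.9, 41.5 and 42.6 CPM (log2 fold change -1.43 ± 0.28, adjusted p = 0.01). Lcp2, which encodes the scaffold SLP-76, is not on the list but was among the 12 abundant higher genes, with 9.01, 21.3 and 2.97 against 386, 366 and 588 CPM (log2 fold change 5.35 ± 0.61, adjusted p = 6.5e-04). The B-lineage sums were at 187 to 231 CPM and the T-cell sums at 9998 to 15320 CPM in these ILCP libraries, and their part in the kinase and adaptor changes was not tested.

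Among regulators of Ras and MAP kinases 6 of 58 were higher and 5 lower (3 higher and 4 lower without CLP 2 and 4 higher and 3 lower without ILCP 1), and the other 47 were not called. Rasgrp1, a diacylglycerol-driven activator of Ras, had 0, 0 and 0.990 against 59.8, 88.6 and 46.98 CPM (log2 fold change 7.56 ± 0.96, adjusted p = 0.0012). Rasgrp2, its relative that acts mainly on Rap proteins, had 123, 96.4 and 127 against 30.9, 28.5 and 21.6 CPM (log2 fold change -2.09 ± 0.28, adjusted p = 0.0015). One was near 0 in CLP, and the other was several-fold higher there than in ILCP. Dusp1, a nuclear MAP kinase phosphatase and immediate early gene, had 222, 209 and 209.8 against 1229, 736 and 1198 CPM (log2 fold change 2.30 ± 0.24, adjusted p = 3.5e-04). Dusp2 had 561, 357 and 199 against 47.3, 31.5 and 51.99 CPM (log2 fold change -3.09 ± 0.39, adjusted p = 0.0011) and Dusp6, which acts on ERK in the cytoplasm, 269, 247 and 168 against 30.3, 5.54 and 27.1 CPM (log2 fold change -3.44 ± 0.55, adjusted p = 0.004). Araf was at 114 against 125 CPM (interval -0.40 to 0.68).

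Phosphoinositide and diacylglycerol genes were called at a share close to the background, with 1 of 58 higher and 4 lower (2 higher and 11 lower with DESeq2 and 1 higher and 2 lower without CLP 2 or without ILCP 3). Itpr2, a calcium release channel, averaged 8.18 against 44.9 CPM (log2 fold change 2.46 ± 0.44, adjusted p = 0.0073). Of the calcium-dependent kinases, Camk4 had 1.54, 1.24 and 0.825 against 153, 109 and 122 CPM (log2 fold change 6.69 ± 0.39, adjusted p = 1.6e-05) and Camk1d 52.9, 84.4 and 71.96 against 11.3, 18.6 and 10.5 CPM (log2 fold change -2.37 ± 0.38, adjusted p = 0.0043). Atp2b1, a plasma membrane calcium pump, averaged 15.3 against 66.4 CPM (log2 fold change 2.12 ± 0.34, adjusted p = 0.0044). Of ion channel and calcium genes 3 of 42 were higher and 2 lower (4 higher and 4 lower with DESeq2), a called share of 11.9% beside 9.44% of all genes.

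**Figure D3:**
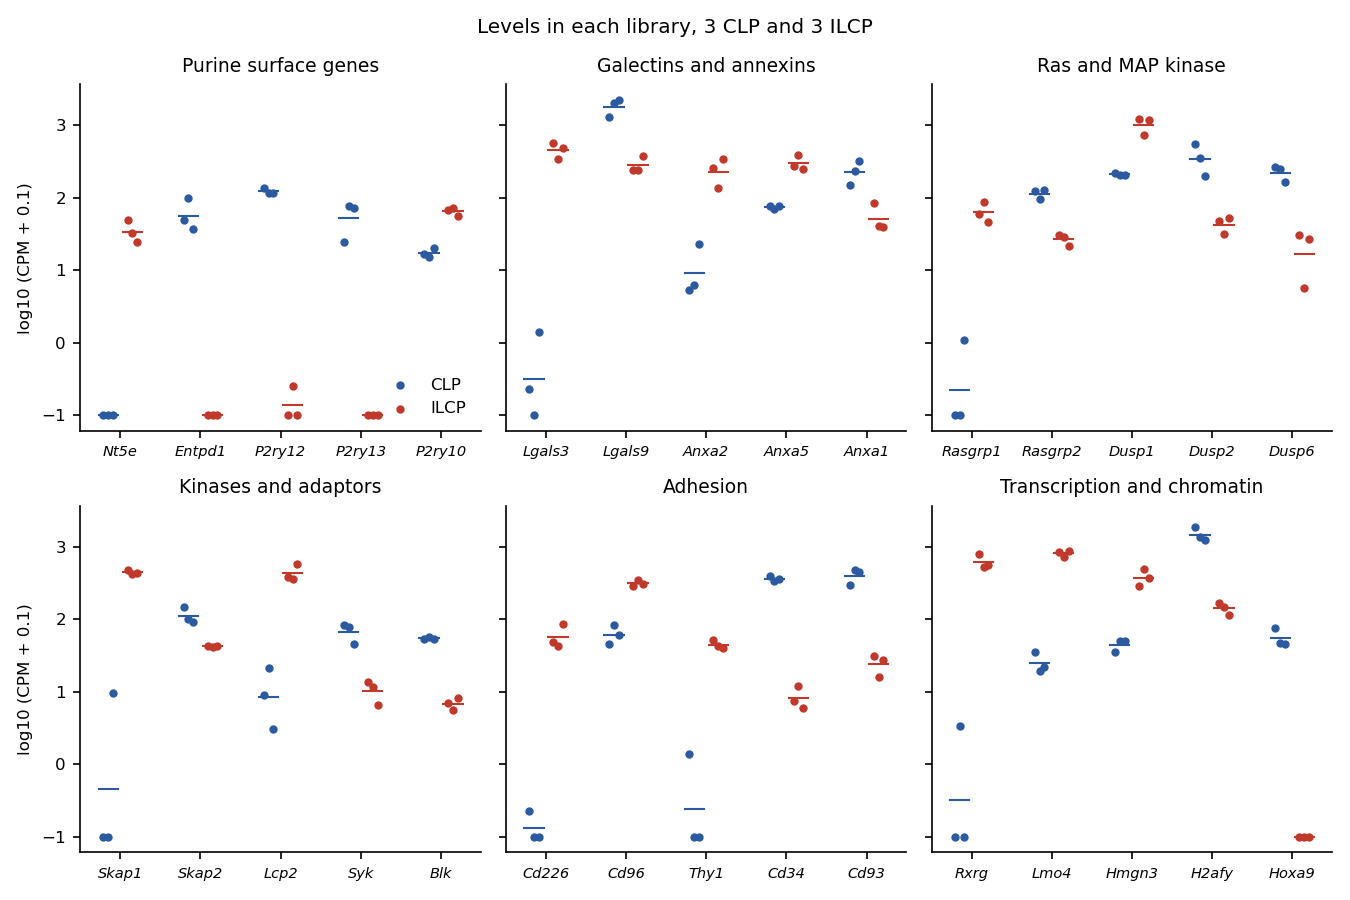
Level of 30 genes in each library, as log10 of CPM plus 0.1, with blue points for the 3 CLP libraries, red points for the 3 ILCP libraries and a line at the mean of the logged values. Points at -1 are libraries with no counts, as for Nt5e in CLP and Entpd1, P2ry13 and Hoxa9 in ILCP, and the 30 genes were eligible to be shown only where the groups did not overlap, which held for 29.6% of all genes tested.

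In the list of purine ectoenzymes and nucleotide salvage, which does not hold the nucleotide receptors, 2 of 41 were higher and 8 lower (24.4% called). CD39 and CD73 act in sequence outside the cell, the first removing phosphates from ATP and ADP and the next turning AMP into adenosine. Entpd1, which encodes CD39 (ENSMUSG00000048120, chr19:40612366-40741602), had 49.8, 98.2 and 37.3 against 0, 0 and 0 CPM (at least 370.4-fold lower, adjusted p = 3.8e-04). Nt5e, which encodes CD73 (ENSMUSG00000032420, chr9:88327197-88372092), had 0, 0 and 0 against 50.05, 32.3 and 24.4 CPM (at least 220.3-fold higher, adjusted p = 6.8e-04). Each gene was thus without a count in all 3 libraries of 1 group and present in all 3 of the other, in opposite directions.

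Several genes that handle nucleotides inside the cell were lower. Pnp, purine nucleoside phosphorylase, had 686, 926 and 704 against 135, 184 and 121 CPM (log2 fold change -2.39 ± 0.24, adjusted p = 2.8e-04). Its neighbour Pnp2 is a near-identical copy that averaged 72.1 against 1.96 CPM, so both counts are uncertain. Slc29a1, a nucleoside transporter, had 285, 271 and 188 against 47.3, 59.2 and 79.4 CPM (log2 fold change -2.0 ± 0.28, adjusted p = 0.0019). Parp1, which consumes NAD at DNA breaks, had 439, 286 and 207 against 85.4, 50.1 and 91.6 CPM (log2 fold change -2.04 ± 0.34, adjusted p = 0.0052). Samhd1, which destroys deoxynucleotides, was higher, with 74.4, 67.6 and 36.1 against 244, 199.6 and 173 CPM (log2 fold change 1.79 ± 0.31, adjusted p = 0.0061). Adk, adenosine kinase, was at 311 against 312 CPM (interval -0.44 to 0.45) and Hprt at 629 against 543 CPM (interval -0.87 to 0.45).

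In the ion and metal carriers 4 of 52 were higher and 6 lower (2 higher and 3 lower without CLP 2 and 3 higher and 3 lower without CLP 3). Of its iron genes, Tfrc and Fth1 were called lower and Slc11a2, the iron transporter DMT1, higher. Tfrc, the transferrin receptor, had 448, 619 and 530.0 against 119, 128 and 161 CPM (log2 fold change -1.97 ± 0.22, adjusted p = 5.8e-04). Fth1, the ferritin heavy chain, had 4458, 4517 and 4600.2 against 2369.6, 2333 and 2672 CPM (log2 fold change -0.88 ± 0.17, adjusted p = 0.011), a smaller difference whose call was lost in the fit to all 8 libraries, without CLP 2, without CLP 3 or without ILCP 1 (adjusted p from 0.051 to 0.058). Slc11a2 had 16.98, 9.93 and 20.1 against 51.2, 35.5 and 61.9 CPM (log2 fold change 1.65 ± 0.42, adjusted p = 0.036), a call lost with library sizes alone, in the fit to all 8 libraries, without CLP 1, without CLP 2, without CLP 3, without ILCP 1 or without ILCP 3 (adjusted p from 0.05 to 0.13). Atp1b3, a subunit of the sodium pump, had 1729, 1509.8 and 1217 against 474, 321 and 431 CPM (log2 fold change -1.86 ± 0.23, adjusted p = 9.8e-04). Slc9a9, an endosomal sodium-proton exchanger, averaged 30.5 against 89.1 CPM (log2 fold change 1.55 ± 0.30, adjusted p = 0.01), and Atp8b4, a phospholipid-transporting ATPase family member, 56.1 against 189 CPM (log2 fold change 1.75 ± 0.27, adjusted p = 0.0034). Among carriers of amino acids, sugars and nucleosides 2 of 40 were higher and 5 lower (2 higher and 9 lower with DESeq2 and 1 higher and 3 lower without CLP 1 or without CLP 3). Slc16a1, a monocarboxylate transporter for lactate, had 126, 84.8 and 120.3 against 37.6, 19.2 and 17.1 CPM (log2 fold change -2.17 ± 0.37, adjusted p = 0.0061). Slc6a13, a GABA and taurine transporter, had 1.54, 1.86 and 9.24 against 81.8, 106 and 151 CPM (log2 fold change 4.74 ± 0.68, adjusted p = 0.0024).

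In amino acid and one-carbon metabolism 4 of 41 were higher and 4 lower (3 higher and 2 lower over genes with a mean of at least 50 counts and 4 higher and 1 lower without CLP 1 or without CLP 3). Ckb, the brain-type creatine kinase that buffers ATP (ENSMUSG00000001270, chr12:111669355-111672338), had 29.98, 32.9 and 16.3 against 597, 347 and 653 CPM (log2 fold change 4.33 ± 0.37, adjusted p = 1.0e-04). Its lowest ILCP value lay far above its highest CLP value. Pycr1, which completes proline synthesis in mitochondria, averaged 9.70 against 58.1 CPM (log2 fold change 2.58 ± 0.40, adjusted p = 0.0034), and Ddc, which makes dopamine and serotonin from their precursors, 23.6 against 114 CPM (log2 fold change 2.28 ± 0.41, adjusted p = 0.0073). Kmo, an enzyme of the kynurenine route of tryptophan breakdown, had 106, 121 and 107 against 31.1, 29.1 and 15.7 CPM (log2 fold change -2.14 ± 0.33, adjusted p = 0.0033).

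Of citric acid cycle and pentose phosphate genes 2 of 33 were higher and 5 lower, but the counts were 0 higher and 3 lower without CLP 1 or without CLP 2, 1 higher and 2 lower without CLP 3, 0 higher and 2 lower without ILCP 1 and 1 higher and 3 lower without ILCP 2 or without ILCP 3. Idh1 and Idh2, the cytosolic and mitochondrial NADP-linked isocitrate dehydrogenases, kept their calls in every alternative tried. Idh1 had 129, 141 and 115 against 28.8, 43.7 and 42.4 CPM (log2 fold change -1.74 ± 0.27, adjusted p = 0.0034), and Idh2 had 488, 384 and 415 against 173, 145 and 179 CPM (log2 fold change -1.37 ± 0.20, adjusted p = 0.0026). Mdh1 and Sdhd, other enzymes or subunits of the cycle and its shuttles, were at 1205 against 1297 CPM (interval -0.36 to 0.58) and 993 against 879 CPM (interval -0.68 to 0.33).

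Redox genes were called in both directions, with 5 of 56 higher and 6 lower (10 higher and 10 lower with DESeq2, 2 higher and 3 lower without CLP 2 or without ILCP 3 and 4 higher and 3 lower without CLP 3). Gclc, the catalytic subunit of the first step of glutathione synthesis, had 19.3, 24.4 and 15.2 against 135, 129.9 and 115 CPM (log2 fold change 2.69 ± 0.29, adjusted p = 3.8e-04). Subunits of the phagocyte NADPH oxidase differed in direction. Cybb, its catalytic subunit, had 31.4, 34.3 and 36.1 against 0.648, 0 and 0 CPM (log2 fold change -7.20 ± 1.02, adjusted p = 0.0022). Cyba, its membrane partner, which also serves other oxidases, had 229, 182 and 277 against 436, 533 and 521 CPM (log2 fold change 1.12 ± 0.22, adjusted p = 0.012), a call lost without CLP 2 or without ILCP 3 (adjusted p from 0.051 to 0.06). Ncf1, a cytosolic subunit, averaged 44.98 against 3.35 CPM (log2 fold change -3.74 ± 0.76, adjusted p = 0.014), a call lost without CLP 1 or without ILCP 3 (adjusted p from 0.057 to 0.067). Prdx1, a peroxiredoxin, was at 1446 against 1459.5 CPM (interval -0.84 to 0.87).

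Fatty acid and phospholipid genes were called at the background share, with 4 of 64 higher and 2 lower (8 higher and 6 lower with DESeq2). Apoe, the lipid carrier, had 21.7, 21.3 and 37.96 against 259, 86.6 and 194 CPM (log2 fold change 2.73 ± 0.43, adjusted p = 0.0039), and Plscr1, a phospholipid scramblase, 33.97, 49.02 and 22.3 against 170.4, 188 and 156 CPM (log2 fold change 2.29 ± 0.31, adjusted p = 0.0018). Pld4, an endolysosomal nuclease despite its name, had 435, 297 and 340.0 against 21.9, 2.15 and 20.2 CPM (log2 fold change -4.60 ± 0.67, adjusted p = 0.0025). In the sphingolipid list 2 of 35 were higher and 2 lower (5 higher and 4 lower with DESeq2 and 2 higher and 0 lower without CLP 2 or without ILCP 1). Its called share was 11.4%, beside 9.44% of all genes. Ugcg, which makes the first glycosphingolipid from ceramide, had 106, 127 and 186 against 406, 466 and 403 CPM (log2 fold change 1.61 ± 0.25, adjusted p = 0.0034), and Smpdl3a averaged 65.3 against 251 CPM (log2 fold change 1.94 ± 0.35, adjusted p = 0.0074).

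**Figure D4:**
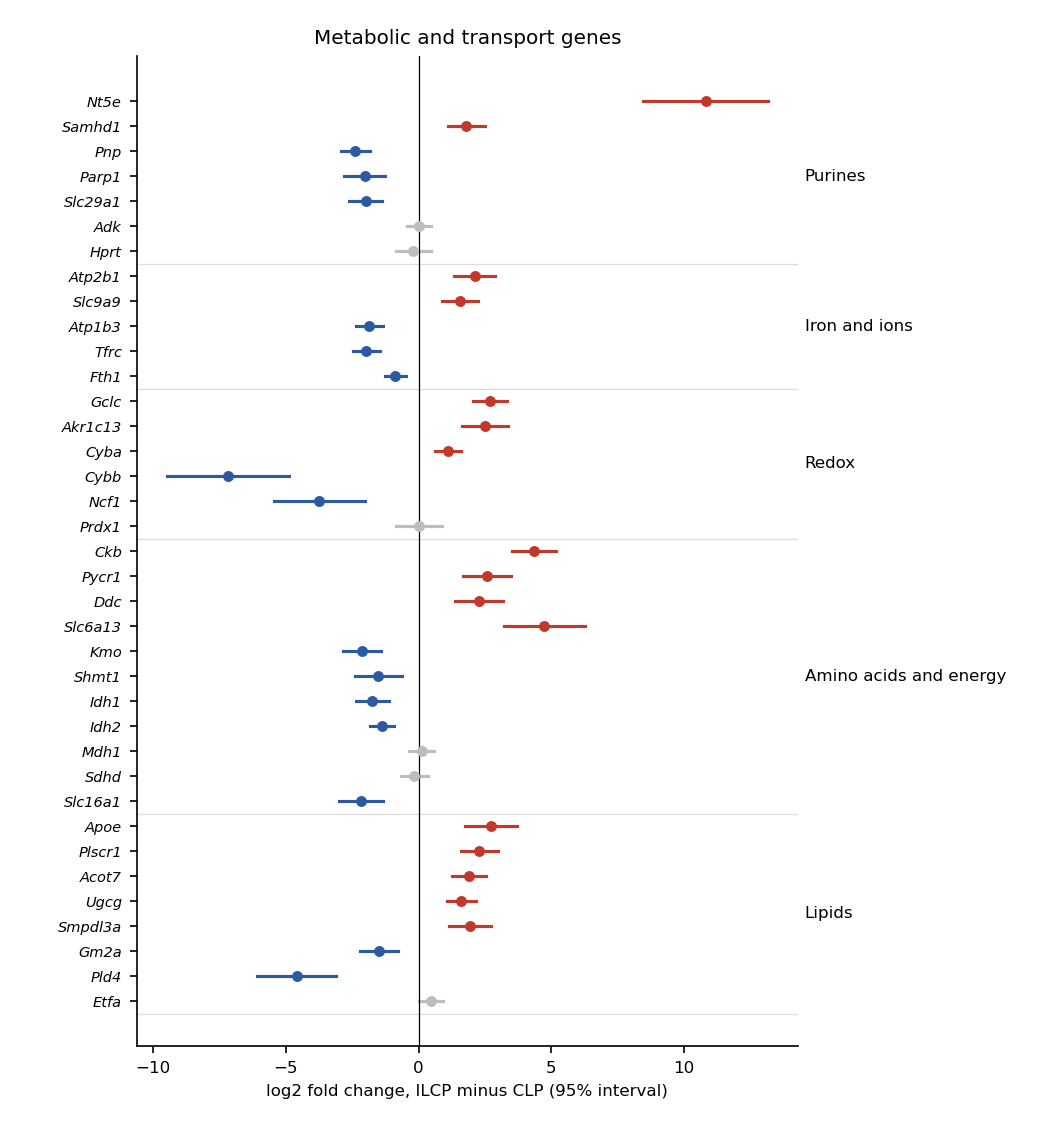
Log2 fold change (ILCP minus CLP) with its 95% interval for 37 metabolic and transport genes, red where called higher, blue where called lower and grey where not called. Nt5e lies far to the right and has the widest interval of the 37, with no count of it in any CLP library, whereas the grey genes Adk, Hprt, Prdx1, Mdh1, Sdhd and Etfa have intervals inside 1 log2 unit of 0.

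Adhesion molecules other than integrins had a called share of 41.5%, with 9 of 41 higher and 8 lower (5 higher and 6 lower without CLP 2). Those that were lower included antigens of stem and early progenitor cells. Cd34, a sialomucin of blood stem cells (ENSMUSG00000016494, chr1:194938819-194961279), was at 364 ± 28.4 CPM in CLP and 8.41 ± 3.06 CPM in ILCP (log2 fold change -5.43 ± 0.32, adjusted p = 1.7e-05). Cd93, a C-type lectin-like receptor of early progenitors, had 301, 475 and 449 against 31.4, 15.99 and 27.6 CPM (log2 fold change -4.03 ± 0.33, adjusted p = 8.4e-05), and Cd24a averaged 1156 against 74.00 CPM (log2 fold change -3.96 ± 0.28, adjusted p = 3.9e-05).

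Those that were higher included receptors for nectin-family ligands and other lymphocyte surface proteins. Cd226, an activating nectin receptor, had 0.129, 0 and 0 against 48.7, 43.4 and 85.8 CPM (pooled counts 1107 times as high in ILCP, 95% interval 198 to 43779.7, adjusted p = 8.3e-05). Cd96, a second nectin receptor, had 45.03, 84.4 and 61.4 against 289, 351 and 310.2 CPM (log2 fold change 2.32 ± 0.27, adjusted p = 6.9e-04). Thy1 had 1.29, 0 and 0 against 51.5, 43.4 and 40.4 CPM (log2 fold change 6.48 ± 1.02, adjusted p = 0.0039), and Cd7 had 77.5, 105 and 115 against 551, 626 and 854 CPM (log2 fold change 2.77 ± 0.26, adjusted p = 1.8e-04). Cd226 and Thy1 were thus almost silent in CLP, whereas Cd96 and Cd7 were readily counted there. The sums of the T-cell list given above were higher in the same libraries, and their part was not tested. Cd53 and Ly6e, abundant surface proteins, were at 1363 against 1134 CPM (interval -0.79 to 0.26) and 1735 against 1535 CPM (interval -0.67 to 0.32).

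Enzymes that build glycans were mostly on the lower side where called, with 3 of 57 higher and 9 lower. St3gal6, which adds sialic acid to glycans, had 365, 606 and 545 against 134, 114 and 136 CPM (log2 fold change -1.98 ± 0.24, adjusted p = 9.1e-04). B3gnt2, which extends lactosamine chains, had 204, 134 and 95.7 against 30.8, 22.3 and 28.03 CPM (log2 fold change -2.42 ± 0.33, adjusted p = 0.0019), and St8sia4, a polysialic acid synthase, averaged 272 against 111 CPM (log2 fold change -1.30 ± 0.21, adjusted p = 0.0046). St6galnac3 was higher, with 26.5, 19.9 and 23.8 against 94.6, 96.1 and 113 CPM (log2 fold change 2.11 ± 0.28, adjusted p = 0.0013), as was Chst11, a chondroitin sulfotransferase, with 0.257, 0 and 0 against 41.8, 34.1 and 11.9 CPM (pooled counts 272 times as high in ILCP, 95% interval 75.00 to 2253, adjusted p = 0.0016). Fut8, which adds core fucose, was at 160.3 against 189 CPM (interval -0.23 to 0.71).

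Tetraspanins organise receptors in the membrane, and in that list 4 of 22 were higher and 3 lower. Cd63, found on late endosomes and secretory granules, had 14.7, 17.6 and 13.2 against 109, 146 and 139 CPM (log2 fold change 3.12 ± 0.28, adjusted p = 1.6e-04), and Cd82 had 13.3, 35.6 and 21.8 against 143, 189 and 406 CPM (log2 fold change 3.39 ± 0.49, adjusted p = 0.0024). Cd9 averaged 96.7 against 294 CPM (log2 fold change 1.61 ± 0.29, adjusted p = 0.0078). Tspan13 was lower, with 1636, 2063 and 1985 against 713, 717 and 802 CPM (log2 fold change -1.35 ± 0.19, adjusted p = 0.0019). Cd81 was at 994 against 838 CPM (interval -0.65 to 0.16).

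Annexins, S100 proteins and galectins had a median log2 fold change of 0.74, with 7 of 31 higher and 2 lower (13 higher and 3 lower with DESeq2). Lgals3 and Lgals9, galectins that bind galactose-containing glycans, differed in opposite directions. Lgals3 (ENSMUSG00000050335, chr14:47367751-47386160) had 0.129, 0 and 1.32 against 579, 343 and 489 CPM (log2 fold change 9.87 ± 0.66, adjusted p = 3.1e-05). Lgals9 (ENSMUSG00000001123, chr11:78962974-78984946) had 1324, 2051 and 2227 against 246, 242 and 373 CPM (log2 fold change -2.70 ± 0.28, adjusted p = 3.2e-04). Per length, in the authors' FPKM, Lgals9 averaged 571 FPKM in CLP and 86.7 FPKM in ILCP and Lgals3 0.171 FPKM in CLP and 167 FPKM in ILCP. Anxa2 and Anxa5, calcium-dependent lipid-binding proteins, had 5.28, 6.20 and 22.9 against 262, 135 and 342 CPM (log2 fold change 4.42 ± 0.62, adjusted p = 0.002) and 76.8, 69.3 and 76.4 against 279, 394 and 253 CPM (log2 fold change 2.06 ± 0.24, adjusted p = 6.5e-04). Anxa1 was lower, with 153, 232 and 327 against 86.00, 40.4 and 39.5 CPM (log2 fold change -2.10 ± 0.39, adjusted p = 0.009), and S100a4 was higher, with 0.386, 0.620 and 0.660 against 28.7, 10.6 and 59.8 CPM (log2 fold change 5.87 ± 0.83, adjusted p = 0.0022).

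Among proteases, their inhibitors and matrix proteins, 11 of 50 were higher and 5 lower (8 higher and 2 lower without CLP 2). Cpa3, a carboxypeptidase best known from mast cells, had 0, 0 and 3.14 against 547, 698 and 555 CPM (log2 fold change 9.15 ± 0.89, adjusted p = 2.4e-04). The other mast cell list genes are given above (7 of 11 at 0, Cma1 counted in 2 ILCP libraries and Gata2 in 1), and their part in this result was not tested. Serpina3g, an inhibitor of cysteine cathepsins, had 0, 0 and 0.990 against 198, 310.5 and 465 CPM (log2 fold change 9.88 ± 0.78, adjusted p = 7.1e-05), and its close relative Serpina3f averaged 0.110 against 36.4 CPM. The Serpina3 genes form a family of near-identical copies, so their counts are uncertain. Ctsw, a cathepsin of cytotoxic lymphocytes, averaged 15.01 against 154 CPM (log2 fold change 3.35 ± 0.41, adjusted p = 9.5e-04). Ctss and Lgmn, endosomal proteases of antigen processing, were lower, with 269, 399 and 321 against 57.5, 75.4 and 98.2 CPM (log2 fold change -2.10 ± 0.27, adjusted p = 0.0012) and 212, 284 and 169 against 50.9, 46.3 and 95.05 CPM (log2 fold change -1.79 ± 0.33, adjusted p = 0.0092). Ctsb, the general lysosomal cathepsin, was at 745 against 629.6 CPM (interval -0.80 to 0.31).

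Rab GTPases and vesicle fusion proteins were called mainly on the higher side, with 8 of 60 higher and 3 lower (11 higher and 6 lower with DESeq2). Cd63, already counted in the tetraspanin list, was 1 of the 8. Rab19 had 5.53, 3.72 and 3.80 against 86.97, 97.5 and 89.9 CPM (log2 fold change 4.38 ± 0.35, adjusted p = 7.2e-05). Rab4a, of the fast recycling endosome, had 31.3, 51.5 and 36.1 against 183, 236 and 158 CPM (log2 fold change 2.28 ± 0.28, adjusted p = 0.001). Snx9, a sorting nexin of clathrin uptake, had 93.2, 65.97 and 38.3 against 0, 0 and 0 CPM, with no count in ILCP (at least 434-fold lower, adjusted p = 2.7e-04). Arl5c averaged 184 against 18.7 CPM (log2 fold change -3.30 ± 0.25, adjusted p = 5.9e-05).

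RNA and chromatin genes were called below the background of 9.44% in 3 lists. In the small RNA, editing and modification list 0 of 39 were called by edgeR, 0 by DESeq2 and 2 at an unadjusted p under 0.05, although 1 was called lower without ILCP 3. Apobec3, a cytidine deaminase, was at 261 against 213 CPM (interval -0.82 to 0.23), and Wtap, of the m6A methyltransferase complex, at 55.4 against 61.5 CPM (interval -0.53 to 0.83). Only 4 of the 39 had an interval inside 1 log2 unit, beside 2116 of all 12010 genes, so most of them could have differed by more without being called. Of histone methyltransferases and demethylases 0 of 59 were higher and 1 lower (1 higher and 3 lower with DESeq2 and 0 higher and 0 lower without CLP 3 or without ILCP 2). The gene called was Jmjd1c, at 181 against 78.2 CPM (log2 fold change -1.21 ± 0.26, adjusted p = 0.018), a call lost without CLP 3, without ILCP 2 or without ILCP 3 (adjusted p from 0.053 to 0.079). Of histone acetyltransferases, deacetylases and bromodomain proteins 1 of 55 was higher and 3 lower (3 higher and 7 lower with DESeq2 and 0 higher and 2 lower without CLP 3 or without ILCP 2). Mta3, a subunit of the NuRD complex, had 289, 278 and 305 against 136, 129 and 159 CPM (log2 fold change -1.04 ± 0.20, adjusted p = 0.0092), and the mitochondrial deacetylase Sirt3 averaged 147 against 59.4 CPM (log2 fold change -1.30 ± 0.24, adjusted p = 0.0086). Hdac1 was at 146 against 177 CPM (interval -0.30 to 0.85).

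In the remodeller, cohesin and nuclear architecture list 4 of 72 were higher and 3 lower (4 higher and 9 lower with DESeq2, 2 higher and 1 lower without CLP 2 and 2 higher and 2 lower without ILCP 1 or without ILCP 2). That is a called share of 9.72%, close to the 9.44% of all genes. Hmgn3, a nucleosome-binding protein, had 35.9, 49.6 and 50.3 against 291, 495 and 367 CPM (log2 fold change 3.09 ± 0.28, adjusted p = 1.5e-04), whereas its relative Hmgn1 was at 876 against 997 CPM (interval -0.25 to 0.62). H1f0, a linker histone of cells leaving division, had 93.9, 38.7 and 40.8 against 313, 289.9 and 196 CPM (log2 fold change 2.20 ± 0.38, adjusted p = 0.0061). H2afy, which encodes the core histone variant macroH2A and was named for its level, had 1869.5, 1356 and 1257 against 170.2, 149 and 114 CPM (log2 fold change -3.37 ± 0.26, adjusted p = 5.9e-05). Satb1, a chromatin organiser, averaged 159 against 40.98 CPM (log2 fold change -1.95 ± 0.31, adjusted p = 0.004), and Hmga2, a chromatin protein of fetal stem cells, 233 against 59.7 CPM (log2 fold change -1.96 ± 0.40, adjusted p = 0.014), a call lost without CLP 2, without CLP 3 or without ILCP 1 (adjusted p from 0.056 to 0.06). Of RNA-binding and mRNA decay genes 3 of 71 were higher and 4 lower (5 higher and 10 lower with DESeq2, 2 higher and 2 lower without CLP 2, 1 higher and 1 lower without CLP 3 and 1 higher and 2 lower without ILCP 1). Their called share of 9.86% was also close to that of all genes. Pan3, of a poly(A)-shortening complex, had 131, 114 and 84.8 against 40.2, 24.8 and 23.6 CPM (log2 fold change -1.90 ± 0.32, adjusted p = 0.0058), and Celf2 was at 387 against 335 CPM (interval -0.62 to 0.21).

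Homeobox factors were called on the lower side except Irx3, with 1 of 23 higher and 7 lower (0 higher and 4 lower in the fit to all 8 libraries, without CLP 2 or without ILCP 3 and 0 higher and 5 lower without CLP 1, without CLP 3 or without ILCP 2). Satb1, already counted in the remodeller list, was 1 of the 7. Hoxa9, a driver of stem and progenitor growth, had 75.9, 46.5 and 45.6 against 0, 0 and 0 CPM, with no count in ILCP (at least 371-fold lower, adjusted p = 2.2e-04). Hhex had 302, 259.8 and 283 against 24.1, 5.23 and 8.30 CPM (log2 fold change -4.49 ± 0.52, adjusted p = 7.1e-04). Meis1, a cofactor of Hox proteins, averaged 130.1 against 27.9 CPM (log2 fold change -2.22 ± 0.35, adjusted p = 0.004), a call lost in the fit to all 8 libraries (adjusted p = 0.095). Cux1 was at 97.5 against 86.2 CPM (interval -0.83 to 0.48).

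Of Krueppel-like, forkhead, IRF and bHLH factors 2 of 60 were higher and 4 lower (7 higher and 8 lower with DESeq2 and 1 higher and 2 lower without CLP 3, without ILCP 2 or without ILCP 3). At 10.0%, the called share was close to the 9.44% of all genes. Irf4 had 18.7, 25.2 and 20.6 against 0, 0 and 0 CPM (at least 133-fold lower, adjusted p = 0.0014), and Foxo1 had 125, 168 and 207 against 44.1, 24.1 and 40.4 CPM (log2 fold change -2.20 ± 0.32, adjusted p = 0.0023). Cebpb was higher, with 2.70, 1.24 and 1.82 against 92.2, 54.1 and 8.46 CPM (log2 fold change 4.71 ± 0.85, adjusted p = 0.0079), with its lowest ILCP value in ILCP 3. Hes1, a target of Notch, was at 973 against 1099 CPM (interval -0.39 to 0.75).

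In the nuclear receptor list 3 of 26 were higher and 3 lower (5 higher and 5 lower with DESeq2). Ahr, the aryl hydrocarbon receptor, had 1.16, 8.07 and 10.2 against 100.3, 79.2 and 58.1 CPM (log2 fold change 3.62 ± 0.68, adjusted p = 0.0092), and Hsd11b1, which regenerates active glucocorticoid, 19.8, 18.8 and 12.7 against 109.6, 101 and 54.2 CPM (log2 fold change 2.36 ± 0.38, adjusted p = 0.004). Tsc22d3, the glucocorticoid-induced leucine zipper, was lower, with 513, 551 and 382 against 67.7, 108 and 190.1 CPM (log2 fold change -1.98 ± 0.36, adjusted p = 0.008). Rxrg, described above, was the third gene of this list that was higher.

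Of ubiquitin ligases and deubiquitinases 8 of 83 were higher and 5 lower (4 higher and 4 lower without CLP 2 or without ILCP 1 and 3 higher and 4 lower without CLP 3). Ndfip1 and Ndfip2, adaptors that activate Nedd4-family ligases, were both higher, with 212, 218 and 204 against 870.2, 729 and 649 CPM (log2 fold change 1.83 ± 0.20, adjusted p = 4.1e-04) and 72.6, 69.1 and 78.1 against 215, 215 and 164 CPM (log2 fold change 1.44 ± 0.22, adjusted p = 0.0034). Asb2, a cullin ligase subunit, had 1.16, 0 and 0 against 58.95, 36.4 and 54.2 CPM (log2 fold change 6.75 ± 0.99, adjusted p = 0.0027). Among the lower ones were genes that interferon is known to induce, but such genes were not read as a set here. Ube2l6 had 27.4, 80.5 and 36.3 against 0, 0 and 0.157 CPM (pooled counts 839 times as high in CLP, 95% interval 150.3 to 33198, adjusted p = 2.7e-04), Usp18 92.4, 126 and 111 against 13.4, 15.8 and 9.24 CPM (log2 fold change -3.10 ± 0.32, adjusted p = 3.4e-04) and Trim25 73.5, 79.00 and 81.2 against 17.98, 12.6 and 24.4 CPM (log2 fold change -2.09 ± 0.34, adjusted p = 0.0046). Rnf167 was at 132 against 137 CPM (interval -0.52 to 0.63).

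The series holds 2 libraries of a further population, ILC1/3P, gated as ILCP except that they lacked PD-1 and carried CD94. Levels of the genes named above were read in them on the scale of all 8 libraries, with log2 fold changes as ILC1/3P minus ILCP. In that comparison 16.3% of 13436 genes were called, 8.06% higher and 8.25% lower, and it shares the ILCP libraries with the comparison above. Nt5e had 31.6 CPM in ILCP and 0.329 and 0 CPM in the ILC1/3P libraries (adjusted p = 0.0044), Rxrg 558 CPM in ILCP and 10.2 and 30.02 CPM in the ILC1/3P libraries (log2 fold change -4.81 ± 0.90, adjusted p = 0.0046) and Lmo4 732 CPM in ILCP and 70.4 and 129 CPM in the ILC1/3P libraries (log2 fold change -2.88 ± 0.36, adjusted p = 6.8e-04). These genes were therefore high in ILCP and low in both CLP and ILC1/3P. Ap3s1 had 443 CPM in ILCP and 157 and 190.3 CPM in the ILC1/3P libraries (log2 fold change -1.35 ± 0.25, adjusted p = 0.0046), and Rab4a 172 CPM in ILCP and 36.7 and 48.5 CPM in the ILC1/3P libraries (log2 fold change -2.01 ± 0.35, adjusted p = 0.0033).

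Other genes that were higher in ILCP than in CLP were higher still in ILC1/3P. Fcer1g had 701 CPM in ILCP and 3839.6 and 5016 CPM in the ILC1/3P libraries (log2 fold change 2.66 ± 0.36, adjusted p = 9.4e-04), Cd7 605 CPM in ILCP and 2364 and 6413 CPM in the ILC1/3P libraries (log2 fold change 2.86 ± 0.39, adjusted p = 9.4e-04) and Cd226 52.97 CPM in ILCP and 378 and 512 CPM in the ILC1/3P libraries (log2 fold change 3.07 ± 0.36, adjusted p = 4.5e-04). Hsd11b1 had 78.5 CPM in ILCP and 609 and 749 CPM in the ILC1/3P libraries (log2 fold change 3.11 ± 0.33, adjusted p = 2.9e-04). For Lgals3 the values were 419 CPM in ILCP and 394 and 400.4 CPM in the ILC1/3P libraries (log2 fold change -0.08 ± 0.44, adjusted p = 0.95) and for Skap1 400.4 CPM in ILCP and 268 and 246 CPM in the ILC1/3P libraries (log2 fold change -0.64 ± 0.92, adjusted p = 0.7), neither of which passed the test. Genes lower in ILCP than in CLP also differed among themselves. Tfrc had 121 CPM in ILCP and 13.5 and 11.1 CPM in the ILC1/3P libraries (log2 fold change -3.30 ± 0.30, adjusted p = 1.5e-04) and Idh2 148 CPM in ILCP and 28.95 and 25.5 CPM in the ILC1/3P libraries (log2 fold change -2.44 ± 0.27, adjusted p = 3.3e-04), both of them lower again in ILC1/3P. Entpd1 had 0 CPM in ILCP and 1.32 and 6.85 CPM in the ILC1/3P libraries (adjusted p = 0.0046), Ube2l6 0.0469 CPM in ILCP and 46.2 and 13.9 CPM in the ILC1/3P libraries (adjusted p = 4.5e-04) and Anxa1 49.1 CPM in ILCP and 234 and 190.3 CPM in the ILC1/3P libraries (log2 fold change 2.11 ± 0.40, adjusted p = 0.0046), all of them higher than in ILCP. Each gene called in this comparison and named here kept its call and direction with any 1 CLP or ILCP library left out. Its direction also held with either ILC1/3P library left out, where the lone ILC1/3P library is assumed to vary like the other groups. Other genes described further up did not keep their calls. Those of Pdcd1, Pnp, Rab19, Clec12a, Cyba, Ugcg and P2ry12 were among the calls lost without ILCP 1 or without ILCP 3. P2ry12 also did not keep its direction in every fit with a library left out. The called genes named here were all taken from those that kept their calls in these fits. Their stability is therefore no result, and it does not extend to all eligible genes. H2afy had 129 CPM in ILCP and 98.7 and 151 CPM in the ILC1/3P libraries (log2 fold change -0.04 ± 0.28, adjusted p = 0.95), which did not pass the test.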

How the data were processed

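Sample titles gave each library's group and number. Per the labels' protocols, cDNA was made in the lysate of sorted cells with a SMARTer Ultra Low kit, amplified by PCR and sequenced on a NovaSeq6000, with no molecular identifiers described. The deposited table holds whole-number counts per gene and the authors' FPKM, for which 0 columns were left unmapped. The build is mm10 per the submitters' processing notes, and for the aligner, counter, annotation and strandedness the answer is not given in the sources used here.

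Counts of the 6 libraries were filtered with filterByExpr, scaled by TMM and fitted with edgeR 4.0.16 in R 4.3.3 (robust quasi-likelihood test, two-sided, 1 mean per group). The fit had a biological coefficient of variation of 0.563 and 4 residual and 5.33 prior degrees of freedom. Standard errors and 95% intervals were derived from the F statistic. In the simulated counts made for this comparison, edgeR recovered 0%, 37.9%, 67.4% and 85.6% of genes changed 2-fold, 4-fold, 8-fold and 16-fold (11369, 11344, 11400 and 11367 genes tested). Only 183 to 195 of the tested genes were changed in each, a smaller share than the 9.44% called in the data. The adjustment was therefore stricter there, and recovery in the data may be higher. Small changes can still go uncalled at this depth and number of libraries, although the smallest called was 0.68 on the log2 scale. Bounds and intervals of pooled counts cover counting error only. Levels in ILC1/3P came from a fit to all 8 libraries. No pair of replicates agreed within sampling noise (chi-square per degree of freedom of 24.5 to 48.2).

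The comparison, the 32 functional lists and the 10 lists of other cells were chosen with earlier results of these data known. Lists are described by counts, with no set test. In each list up to 4 called genes per direction were eligible to be named, by smallest p, if the groups did not overlap and the higher one averaged 20 CPM or more, together with the 2 most abundant genes whose interval lay within -1 to 1. The sort markers and 12 abundant genes per direction outside lineage lists were added, and not every eligible gene is reported. Results of 1 functional list and of a few genes are not reported here. Genes of the other-cell lists were chosen after their values were seen. CPM is not scaled by length and compares libraries, not genes. March1, Nectin1, Wapal and 11 other listed symbols were not matched. Genes whose exons overlap another gene in GENCODE M21 (34.1% of the called genes) are uncertain. Among those described these are Ahr, Ahsg, Anxa2, Apobec3, Araf, B3gnt2, Camk4, Cd34, Cd3e, Cd7, Cd74, Cd81, Cd9, Cebpb, Celf2, Ctsb, Ctsw, Cux1, Dusp1, Eomes, Foxo1, Fut8, Gp1bb, Gpr65, H1f0, H2afy, Hmga2, Hmgn3, Hoxa9, Ifng, Itga4, Lcp2, Mdh1, Meis1, Mzb1, Ncf1, Ndfip2, P2ry12, Parp1, Pde2a, Pnp, Pnp2, Rasgrp2, Rnf167, S100a4, Satb1, Sema4a, Sirt3, Skap1, Slc11a2, Slc29a1, St3gal6, Stab2, Tifa and Usp18.

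Alternatives were other scalings, DESeq2 1.42.0, other filters, the replicate number as a block, all 8 libraries in 1 fit, and each library left out.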

Additional observations from a re-analysis of the deposited data

How the results depend on the processing

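Counts of called genes moved with the test and with single libraries. Beside 595 higher and 539 lower genes, DESeq2 called 1016 and 971. Leaving out 1 library gave 391 to 466 higher and 286 to 446 lower. Of the 391 left without ILCP 3, 380 were among the 595. Of the 286 left without CLP 2 and the 303 without CLP 3, 279 and 297 were among the 539. Calls within the functional lists numbered 257, 406 with DESeq2 and 172 to 214 with 1 library left out. Other scalings, filters and the fit to all 8 libraries gave 511 to 614 higher and 386 to 565 lower, and the share of calls that were higher stayed between 49.4% and 58.8% in all alternatives. Of the 191 called genes eligible to be named, 136 kept the call in every alternative, 52 lost it when some single library was left out, 24 lost it in another alternative and 0 changed sign. Of these 191 genes 65 were called between ILC1/3P and ILCP, and 43 (without ILC1/3P 2) to 68 with 1 of the 8 libraries left out, an alternative chosen after seeing the data. Libraries with the same replicate number correlated weakly in their deviations from the group means (0.105, 0.0686 and 0.00239). Pairs with different numbers ran from -0.109 to 0.0347. Correlations this small cannot settle whether the numbers pair the samples. With the replicate block 534 genes were higher and 471 lower. The simulated counts held a smaller share of changed genes than was called here. Their lack of calls at 2-fold still limits what can be said of genes that were not called.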
